A study of Homo sapiens with 18 samples.

Results

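The regions described here are domains of the repressive histone mark H3K9me3 near the ends of human autosomes in NB4 cells, an established line of acute promyelocytic leukemia. H3K9me3 peaks of 6 libraries were merged where they overlapped by 1 bp or more on 21 autosomes, 1 to 18 and 20 to 22. A merged region was taken as an end region when at least 4 of the 6 libraries called a peak in it and it lay within 2 Mb of a chromosome end. The short arms of the 5 acrocentric chromosomes, 13, 14, 15, 21 and 22, were left out, so that 37 ends remained, 16 of short arms and 21 of long arms. The outer limit of a long arm was the highest peak end on that chromosome in any of the 18 lists of the series. In this way 1297 end regions were obtained, 497 on short arms and 800 on long arms, of 22101 regions called in at least 4 lists on the same chromosomes. The other 20804 regions are called interior regions below. A further 868 merged regions in the end zones were called in 1 to 3 lists and were not counted as end regions, and the whole series held 46996 merged H3K9me3 regions.

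Trimethylation of lysine 9 of histone H3 is written by methyltransferases such as the SUV39H enzymes and SETDB1, and it is bound by HP1 proteins, which compact the chromatin. The mark is typical of pericentromeric and telomeric heterochromatin, of silenced repeats and of clusters of zinc finger genes, several of which lie close to chromosome ends. The segments next to the telomeres, the subtelomeres, are gene-rich on many arms and carry blocks duplicated between chromosomes. H3K4me3, by comparison, is found mainly at active promoters, and H3K27ac at active promoters and enhancers.

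Untreated NB4 cells were compared with NB4 cells that had received maltonis, a synthetic derivative of maltol, at 10 µM over 24 h, with 3 libraries per condition for each of the 3 marks. Both conditions come from the same single cell line, and the study calls the triplicates biological. The libraries are named untreated 1 to 3 and maltonis 1 to 3. Coordinates are those of the deposited lists, which the submitters' processing notes place on hg19. The study kept uniquely mapped reads, so the telomere repeats themselves and recently duplicated blocks are poorly represented in these values. No gene annotation or sequence of that build was used here. Where genes are named beside a chromosome end, they give only the order of protein-coding genes at that end in RefSeq on GRCh38.p14, and no gene is assigned to a region.

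Maltonis 3 stood apart in reads under peaks, with 2088058 in the 14226 regions called in all 6 lists of the whole genome, whereas the other 5 libraries held between 2385687 and 2520143. It also had the lowest H3K9me3 coverage, and the part of its lower read number in the values below was not tested. Reads under peaks depend on sequencing depth, enrichment and called length alike, and library totals were not used here.

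The first question was whether H3K9me3 is denser at the ends than elsewhere, and whether it remains so with maltonis. The share of bases under H3K9me3 was between 2.28 and 2.64 times as large in the end zones as in the interior, depending on the library. Coverage, the percentage of bases under H3K9me3 peaks of any list number, was 12.6, 13.0 and 13.0% of the end zones in untreated libraries and 13.9, 13.7 and 12.2% in maltonis libraries. In the interior of the same chromosomes it was 5.37, 5.58 and 5.67% without and 5.61, 5.48 and 4.61% with maltonis. Thus, no library overlapped between ends and interior. The mean was 13.1% ± 0.648 at the ends and 5.39% ± 0.394 in the interior (SD, n = 6), a 2.43-fold ratio and a difference of 7.67 percentage points, with the ends higher in 6 of 6 libraries (exact sign-flip permutation test, two-sided, p = 0.03125, the smallest that 6 libraries allow). The size of this excess depended on the bases counted. When only 100 kb windows that held a peak served as denominator, the difference was smaller, at 6.69 percentage points.

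**Figure D1:**
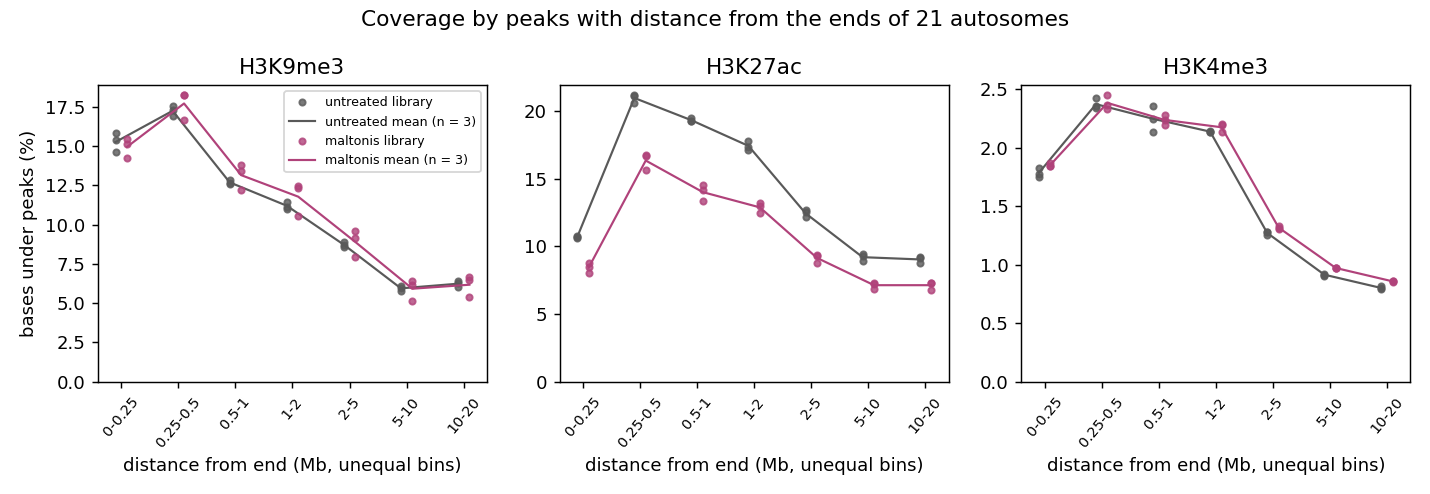
Percentage of bases under peaks (y axis, separate scale per mark) against the distance from the end of 21 autosomes (x axis, bins of unequal width in Mb). Points are libraries and lines join the means of 3 untreated (grey) and 3 maltonis (purple) libraries. H3K9me3 coverage was highest between 0.25 and 0.5 Mb in both conditions and approached the interior level beyond 5 Mb, while H3K27ac was lower with maltonis in every bin.

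H3K9me3 coverage was graded with distance, as shown by the profile of coverage over distance. In untreated libraries it averaged 15.3% ± 0.612 in the outermost 0.25 Mb, 17.3% ± 0.311 between 0.25 and 0.5 Mb and 12.7% ± 0.150 between 0.5 and 1 Mb (SD, n = 3). It was 11.2% ± 0.230 from 1 to 2 Mb, 8.73% ± 0.167 from 2 to 5 Mb and 5.95% ± 0.167 from 5 to 10 Mb. Maltonis libraries had 15.0% ± 0.622, 17.7% ± 0.901, 13.2% ± 0.830 and 11.8% ± 1.09 in the bins up to 2 Mb, and the conditions overlapped in all 7 bins up to 20 Mb. The limit of 2 Mb therefore cuts a slope rather than a boundary. Of the regions beside it, the end regions chr2:241183601-241190600, called in 6 lists with 71, 52, 58, 80, 66 and 95 reads in the order untreated 1 to 3 and maltonis 1 to 3, and chr22:49224401-49236000, called in 5 lists, lay just inside. The regions chr5:1985801-2003200, called in 5 lists, and chr12:1997001-2006400, called in 6 lists with 129, 134, 145, 156, 84 and 113 reads, lay just outside.

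End regions were closer together than interior regions, with a median gap of 17000 bp to the next region against 35600 bp. Their width differed less, with a median of 7800 bp (10th to 90th percentile 4400 to 17000 bp) against 7400 bp (4400 to 15400 bp) in the interior. Regions of at least 20 kb made up 7.02% of end regions (91 of 1297) and 5.34% of interior regions (1111 of 20804). All 6 lists called 71.9% of end regions (933) and 61.4% of interior regions. These values describe regions, which share libraries and are not replicates. Read density, the summed reads of all peaks over their summed called length, was also higher at the ends within each library. It was 20.9 ± 0.709 reads per kb called at the ends and 18.8 ± 0.515 in the interior (SD, n = 6), a 1.11-fold ratio found in 6 of 6 libraries (exact sign-flip permutation test, two-sided, p = 0.03125). On the log2 scale this was 0.15, with 0.23 for end zones of 1 Mb and 0.05 for end zones of 5 Mb (same p). Wide domains weigh most in such sums. In untreated 1, chr4:35401-496200 and chr12:133682601-133831000 held 18090 and 6143 of 197518 end zone reads, at 40.1 and 43.6 reads per kb. The part of these 2 domains in the ratio was not tested. Median peak width was on average 200 bp larger at the ends and higher in 5 of 6 libraries (exact sign-flip permutation test, p = 0.0625).

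Next, the ends were compared between conditions. The study reports that bulk H3K9me3 fell with maltonis, markedly by western blot of total lysates and also by mass spectrometry. Peak lists and counts scaled between libraries do not measure the absolute amount of the mark. Similar coverage therefore does not show an unchanged level. With all peaks of each list, H3K9me3 end coverage overlapped between conditions. The mean was 12.8% ± 0.198 without and 13.3% ± 0.937 with maltonis (SD, n = 3 each), with maltonis 3 below and maltonis 1 and 2 above all untreated libraries (exact permutation test, two-sided, p = 0.5). The difference of 0.424 percentage points was 0.102 without maltonis 1, 0.209 without maltonis 2 and 0.961 without maltonis 3. It was larger when the lists were brought to a common threshold, at 1.15 points with equal numbers of peaks, the strongest of each list (exact permutation test, p = 0.1), and 0.830 at a common lowest island score (exact permutation test, p = 0.4). In the interior the means were 5.54% ± 0.158 and 5.23% ± 0.541 (exact permutation test, p = 0.6). With 3 libraries against 3, this test cannot give a p under 0.1, so that no comparison of conditions over libraries could reach 0.05.

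**Figure D2:**
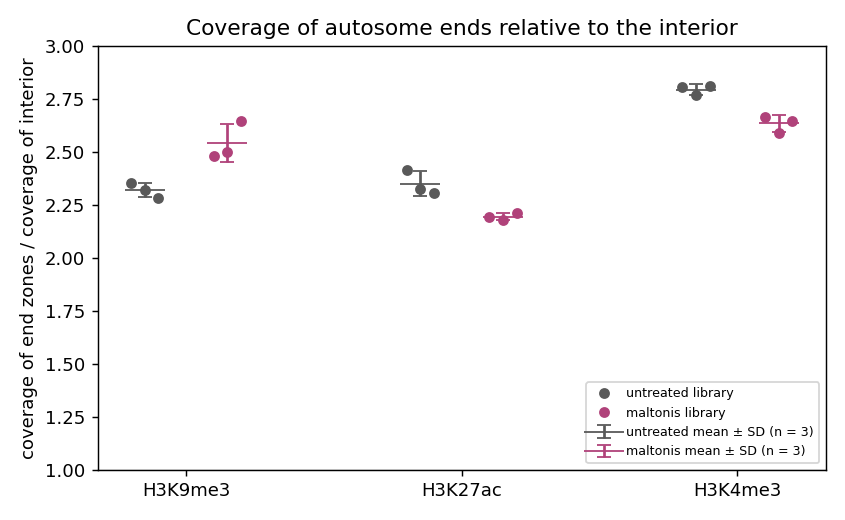
Coverage of the end zones divided by coverage of the interior in the same library (y axis, starting at 1, the value of equal coverage) for 3 marks (x axis). Points are libraries, horizontal lines are means and bars are SD (n = 3). The maltonis libraries lie above the untreated ones for H3K9me3 (2.54 against 2.32 on average) and below them for H3K27ac and H3K4me3.

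The balance between ends and interior, which is taken within a library, separated the conditions. Coverage of the ends was 2.35, 2.32 and 2.28 times that of the interior in untreated libraries and 2.48, 2.50 and 2.64 times in maltonis libraries. All 3 maltonis values were above all 3 untreated ones, with means of 2.32 ± 0.0340 and 2.54 ± 0.0886 (SD, n = 3 each) and a difference of 0.13 on the log2 scale (exact permutation test, two-sided, p = 0.1, the smallest possible). Left out in turn, single libraries moved this difference between 0.10 (without maltonis 3) and 0.15 on the log2 scale, always without overlap. With equal numbers of peaks it was 0.09, and at a common lowest island score 0.11 (exact permutation test, p = 0.1 each). Maltonis 3, with the fewest reads under peaks, had the highest ratio. End regions had a median score percentile of 64.3, against 54.4 for interior regions. The part of read number and peak strength in the ratio was not tested. In addition, end zone peaks took 6.70% ± 0.0712 of all reads in H3K9me3 peaks without and 7.23% ± 0.189 with maltonis (SD, n = 3 each), and here too the conditions stayed apart (exact permutation test, p = 0.1).

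Peak numbers also differed between conditions. The end zones held 1759, 1783 and 1773 H3K9me3 peaks in untreated libraries and 1673, 1693 and 1739 in maltonis libraries. Every maltonis library was lower, with means of 1772 ± 12.1 and 1702 ± 33.8 (SD, n = 3 each), a change of -3.95% (exact permutation test, p = 0.1), while the interior changed by -14.8%. The lower number depended on the threshold of each list: when only the strongest peaks were kept in equal numbers per list, the end zones of maltonis libraries had 139 more peaks on average (exact permutation test, p = 0.1), and at a common lowest island score 47 more (p = 0.4). End zone peaks had a median width of 4067 ± 115 bp in untreated and of 4467 ± 416 bp in maltonis libraries (SD, n = 3 each), with overlap (exact permutation test, p = 0.4).

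Reads per kb of end zone peaks were 21.2, 21.4 and 21.7 without and 20.5, 20.5 and 19.8 with maltonis (exact permutation test, p = 0.1). These densities are not scaled for depth. Relative to the interior of the same library, the log2 ratio of densities was 0.16 ± 0.0085 and 0.14 ± 0.011 (SD, n = 3 each), with overlap (exact permutation test, p = 0.2). Short arms averaged 11.9% ± 0.244 coverage without and 12.9% ± 1.01 with maltonis (exact permutation test, p = 0.3), and long arms 13.5% ± 0.179 and 13.5% ± 0.884 (p = 1). Both arms therefore overlapped between conditions.

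Each maltonis list called fewer of the 1297 end regions than any untreated list. Untreated libraries called 1227, 1226 and 1232 of them and maltonis libraries 1202, 1200 and 1168. These were 94.6, 94.5 and 95.0% against 92.7, 92.5 and 90.1%, whereas of the interior regions untreated libraries called 93.3 to 95.0% and maltonis libraries 84.8 to 87.8%. Of the uneven patterns that the rule of 4 lists allows, 3 untreated lists with 2 maltonis lists were found for 126 end regions (9.71%, interior 15.1%) and 2 with 3 for 75 (5.78%, interior 5.19%). The pattern of 3 untreated lists with 1 maltonis list was found for 66 end regions (5.09%), and 1 with 3 for 34 (2.62%). Over all 22101 end and interior regions the last pair made up 8.26% and 2.2%. The rule used these calls, and they are given as a description.

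**Figure D3:**
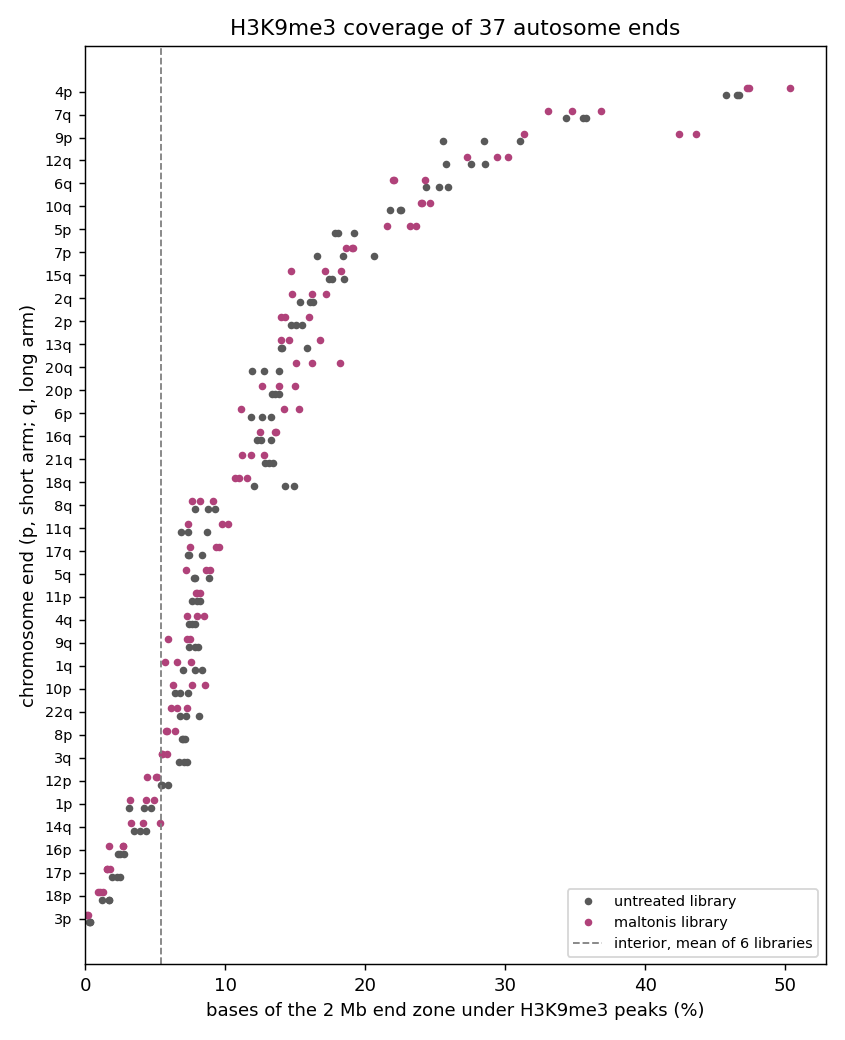
H3K9me3 coverage of the outermost 2 Mb (x axis, percent of bases under peaks) for each of 37 chromosome ends (y axis, ordered by mean). Points are libraries, grey without and purple with maltonis, and the dashed line is the mean interior coverage of 6 libraries, 5.39%. Coverage ran from 0.225% at 3p to 47.4% at 4p, and the means of the conditions lay farthest apart at 9p.

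The ends were far from uniform, as the plot of coverage for each end shows. Mean H3K9me3 coverage ranged from 0.225% to 47.4% over the 37 ends, with a median of 8.48%, and 30 ends were covered above the interior mean. Each end had between 0 and 77 end regions, with a median of 29. The distance from the end to the nearest region had a median of 68126.5 bp and a maximum of 723600 bp over the 36 ends that held one, and 25 of these 36 had a region within 100 kb. Short arms were measured from the first base. Long arms were measured from the outermost peak end, which an H3K9me3 peak can itself set, so these distances are only descriptive.

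The tip of 4p was the most covered end, with 46.7, 46.6 and 45.8% of its outermost 2 Mb under H3K9me3 peaks in untreated and 50.4, 47.4 and 47.3% in maltonis libraries. The outermost genes of 4p in RefSeq order are ZNF595, ZNF718, ZNF732, ZNF141 and ZNF721, which encode zinc finger proteins. A single region, chr4:35401-496200, was the widest of all end regions at 460800 bp and was also the one with the highest mean island score percentile. It held 18090, 18537 and 18845 reads without and 17813, 17624 and 15863 with maltonis, over 448800 to 454800 bp called in each library. Its reads per kb, 40.1, 41.3 and 41.5 without and 39.2, 38.9 and 35.0 with maltonis, compare with 20.9 on average for all end zone peaks.

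The end of 7q followed with 35.1% mean coverage and the most end regions, 77. Its outermost genes in RefSeq order are VIPR2, a receptor for vasoactive intestinal peptide, DYNC2I1, ESYT2, NCAPG2 and PTPRN2. Conditions overlapped there, with 34.4 to 35.8% without and 33.0 to 36.9% with maltonis. Of the 6 regions with the highest score percentile, 3 lay on 7q. Among them chr7:158748601-158790400 held 1116, 1071, 1127, 1092, 1095 and 998 reads, and chr7:158097401-158128000 held 959, 977, 1000, 994, 961 and 945, in the order untreated 1 to 3 and maltonis 1 to 3. Both varied little among libraries. The third, chr7:158380801-158394600, held 229, 315, 305, 312, 311 and 263 reads.

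The end of 12q, at 28.1%, resembled 4p in its gene order, with ZNF268, ZNF10, ZNF891, ZNF140, ZNF84, ZNF26 and ZNF605 among its 8 outermost genes in RefSeq. Its last region, chr12:133682601-133831000, reached the outermost peak end on the chromosome and held 6143, 6507 and 6562 reads without and 6245, 6145 and 5576 with maltonis. A neighbour, chr12:133472401-133502400, held 953, 1037, 1074, 1036, 1033 and 938 reads and completed the 6 regions with the highest score percentile. Both large domains, on 4p and 12q, also carried H3K27ac and H3K4me3 peaks in all 6 libraries of each mark. Regions on 7q, 9q and 11q also reached the outermost peak end, and of these chr11:134938601-134946000 and chr7:159107201-159124600 carried neither mark in any library and held 103, 124, 112, 125, 81 and 90 reads and 387, 363, 458, 399, 328 and 353 reads, respectively.

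At the lower end of the order stood 3p, with 0.35, 0.36 and 0.28% coverage without and 0.22, 0.14 and 0% with maltonis and no end region. The outermost genes of 3p in RefSeq order are CHL1, CNTN6 and CNTN4, which encode neural cell adhesion molecules of the contactin and L1 families. No library had an H3K27ac peak in this zone either, and H3K4me3 coverage was also 0. Next in order were 18p, at 1.30% with 5 end regions, and 17p, at 1.95% with 11. The ranges of 3p and 18p did not overlap, whereas 18p reached 1.72% and 17p began at 1.59%.

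The ends 4p, 5p, 9p, 10q and 20q had higher H3K9me3 coverage in all 3 maltonis libraries than in any untreated library (5 of 37, 13.5%). In the interior, 3.74% of 1282 windows of 2 Mb behaved in this way. Another 8 ends had lower coverage without overlap (3p, 3q, 6q, 8p, 12p, 17p, 18q and 21q), whereas 29.2% of interior windows were lower. A difference between these shares was not tested, as each end rests on 3 libraries per condition and p = 0.1 is the smallest value that an exact permutation test can give for one end.

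Of the 37 ends, 9p had the largest difference between the means of the conditions. Coverage was 25.6, 31.1 and 28.5% in untreated and 42.4, 43.6 and 31.4% in maltonis libraries, with means of 28.4% ± 2.75 and 39.1% ± 6.77 (SD, n = 3 each). The lowest maltonis value, that of maltonis 3, lay close to the highest untreated value. The outermost genes of 9p in RefSeq order are WASHC1, FOXD4, ZNG1A, DOCK8 and KANK1, followed by DMRT1, DMRT3 and DMRT2. H3K27ac coverage of this zone, 26.6, 28.5 and 26.8% without and 26.1, 27.01 and 25.8% with maltonis, overlapped between conditions.

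At 5p coverage was 17.8, 18.1 and 19.2% without and 23.2, 23.6 and 21.5% with maltonis, and at 20q it was 11.9, 13.8 and 12.8% without and 18.2, 16.2 and 15.0% with maltonis. H3K27ac coverage of the 20q zone was 32.2, 32.7 and 32.4% without and 20.4, 20.3 and 20.3% with maltonis. At 10q means were 22.3% ± 0.436 and 24.2% ± 0.341, and at 4p 46.4% ± 0.521 and 48.3% ± 1.75 (SD, n = 3 each). In the opposite direction, 6q had 25.2% ± 0.788 without and 22.8% ± 1.27 with maltonis, and 18q had 13.8% ± 1.51 and 11.1% ± 0.428 (SD, n = 3 each).

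Read counts were then compared region by region, over the 933 end regions called in all 6 lists and together with all other such regions of the genome. The deposited counts cover each peak as it was called in its own library, so a region's sum moves with the length called there. End regions had a median log2 fold change (maltonis over untreated) of 0.06, against -0.01 for 12781 interior regions and -0.00 for all 14226 regions. The middle 80% of end regions lay between -0.29 and 0.50, and the median standard error was 0.23. Short-arm regions had a median of 0.10 (n = 352) and long-arm regions 0.03 (n = 581). With the called length as an offset, both medians were 0.03.

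The cut-offs of the study were applied, a log2 fold change of 0.58 or more in size with an FDR not above 0.01. The study applied them with DiffBind to peaks shared by replicates, so its numbers of regions are not comparable with those given here. Under these cut-offs 4 end regions gained reads (4 of 933, 0.429%) and 0 lost reads (edgeR quasi-likelihood test, Benjamini-Hochberg adjustment). A region that any list did not call was not fitted, so losses or gains of a whole call could not be counted here. Over all 14226 regions the test called 0.253% with more and 0.0141% with fewer reads. At an unadjusted p under 0.05, 99 end regions (10.6%) had more reads, against 8.6% of all regions, and 36 (3.86%) had fewer, against 5.47%. DESeq2 called 15 end regions with more and 4 with fewer reads, beside 0.977 and 0.309% of all regions. With the called length as an offset, edgeR called 2 and 0 (all regions 0.119 and 0.0211%). These 2 regions, chr9:139923001-139931000 on 9q and chr10:135068801-135076000 on 10q, were not among the 4. Their log2 fold changes with the offset were 0.75 and 1.16 (edgeR, adjusted p = 0.00541 and 0.00021). After scaling by library, 135 end regions (14.5%) were higher in every maltonis library than in any untreated one, beside 10.4% of all regions, and 57 (6.11%) were lower, beside 9.23%. Called length was longer without overlap in 63 end regions (6.75%; all regions 5.35%) and shorter in 39 (4.18%; all regions 5.48%).

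**Figure D4:**
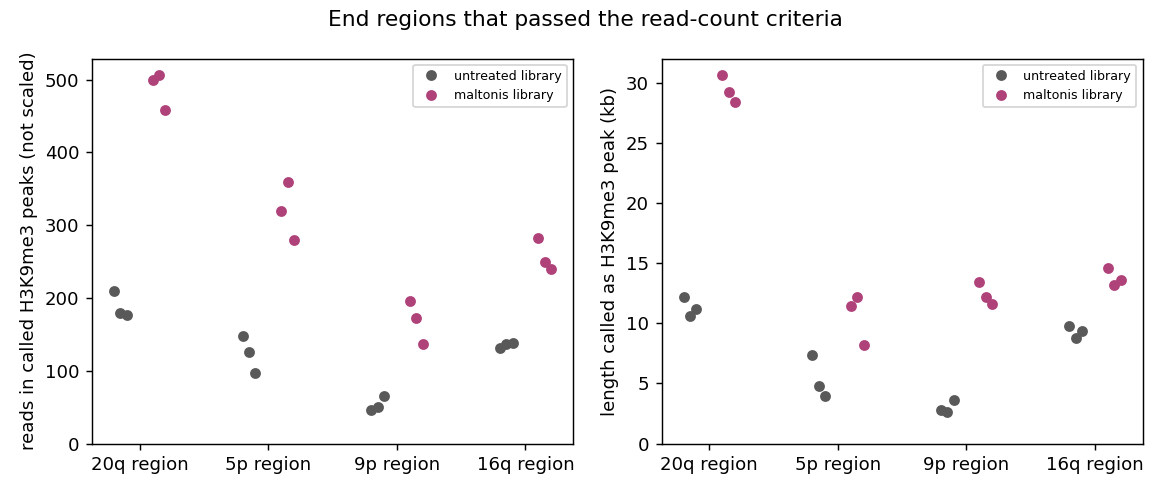
Reads in called H3K9me3 peaks, not scaled for depth (left y axis), and length called as peak in kb (right y axis) for the 4 end regions that passed the read-count criteria (x axis). Points are libraries, grey without and purple with maltonis. In each region all 3 maltonis libraries lie above all 3 untreated ones in reads and in called length.

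The region chr20:62170801-62209000 on 20q had 210, 180 and 177 reads without and 500, 506 and 458 with maltonis. No library overlapped, and the log2 fold change was 1.48 ± 0.117 (SE; edgeR quasi-likelihood test, adjusted p = 0.000443). The called length also differed, at 12200, 10600 and 11200 bp without and 30600, 29200 and 28400 bp with maltonis, and with that length as an offset the log2 fold change was 0.11. Peaks of H3K4me3 and H3K27ac overlapped the region in all 6 libraries of each mark.

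On 5p, chr5:881201-893600 had 148, 126 and 97 reads without and 320, 360 and 280 with maltonis. The increase was 1.48 ± 0.174 on the log2 scale (SE; edgeR quasi-likelihood test, adjusted p = 0.00282), and 0.51 with called length as an offset. Both active marks overlapped it in all 6 libraries. Likewise, chr16:88864001-88880000 on 16q had 131, 137 and 138 reads without and 282, 249 and 240 with maltonis, an increase of 1.04 ± 0.138 (log2, SE; edgeR, adjusted p = 0.00517) that was 0.48 with the offset, and again both marks were present in all libraries.

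The fourth region, chr9:1652601-1673000, lay inside the 9p zone and differed from the other 3 in its marks, as no H3K27ac library and only 1 H3K4me3 library had a peak in it. It held 46, 51 and 65 reads without and 196, 172 and 137 with maltonis, a log2 fold change of 1.75 ± 0.218 (SE; edgeR, adjusted p = 0.00402). Its called length was 2800, 2600 and 3600 bp without and 13400, 12200 and 11600 bp with maltonis, and with length as an offset the log2 fold change was -0.30. The 4 regions therefore differed in reads together with length, as the plot of their reads and lengths shows, and with the offset none of them kept an adjusted p under 0.05 (range 0.0786 to 0.863). Leaving out single libraries, the 20q region stayed within the criteria in all 6 fits (edgeR, highest adjusted p = 0.00731). The 16q region passed the FDR limit in 0 of 6 (0.0198 to 0.0267), the 9p region only without maltonis 3 and the 5p region only without untreated 1 or maltonis 3, with adjusted p-values of up to 0.0239 and 0.0200, respectively.

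Of the regions next in order by p, chr9:708201-783800 on 9p had 938, 996 and 986 reads without and 1365, 1151 and 1049 with maltonis, a log2 difference of 0.40 (edgeR, adjusted p = 0.0129). Toward fewer reads the smallest p belonged to chr18:76823801-76846400 on 18q, with 333, 359 and 375 reads without and 210, 209 and 220 with maltonis (log2 difference -0.61, edgeR adjusted p = 0.0387). It was followed by chr22:50257601-50264400, with 133, 154 and 151 reads against 67, 68 and 26 (log2 difference -1.35, edgeR adjusted p = 0.0482). The reads of these regions did not overlap between conditions, although none passed the criteria. The remaining regions of this order, chr13:114062001-114068600, chr2:242666001-242675600 and chr15:100738801-100751000, had log2 differences between -1.23 and -1.06 and adjusted p-values between 0.0547 and 0.0651 (edgeR). With called length as an offset, the log2 difference was 0.07 for the 9p region and -0.06 for the 22q region, it turned to 0.10 on 18q, 0.11 on 13q and 0.36 on 15q, and it was -0.24 on 2q.

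**Figure D5:**
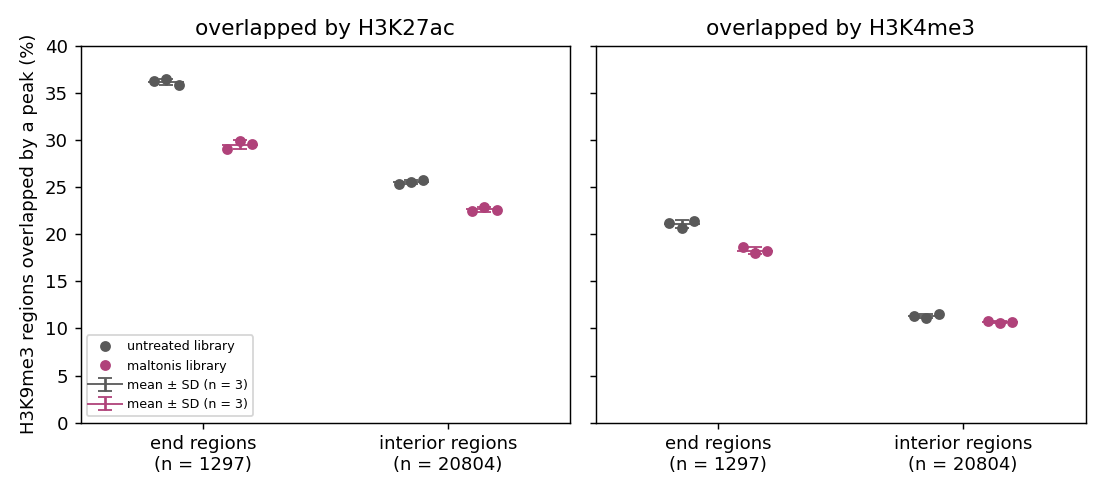
Share of H3K9me3 regions overlapped by at least 1 bp by a peak of H3K27ac (left) or H3K4me3 (right), in percent (y axis), for 1297 end regions and 20804 interior regions (x axis). Points are libraries, horizontal lines are means and bars are SD (n = 3). End regions lie above interior regions for both marks, and H3K27ac overlap of end regions was 36.2% without and 29.5% with maltonis on average.

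Lastly, the end regions were set against the active marks, whose calls did not enter the choice of regions except that the outer limit of a long arm was taken over all 18 lists. End regions were overlapped by active marks more often than interior regions. H3K27ac peaks overlapped 32.9% ± 3.68 of end regions and 24.1% ± 1.60 of interior regions (SD, n = 6), a difference of 8.77 percentage points with the same direction in 6 of 6 libraries (exact sign-flip permutation test, two-sided, p = 0.03125). The mean and SD span both conditions, which differed and are given apart below. For H3K4me3 the shares were 19.7% ± 1.58 and 11.0% ± 0.384, a difference of 8.68 points in the same direction in 6 of 6 libraries (exact sign-flip permutation test, p = 0.03125). The end zones as a whole were also richer in these marks. H3K27ac covered 15.3% of the ends and 6.70% of the interior (2.27-fold), and H3K4me3 2.16% and 0.798% (2.71-fold), each in 6 of 6 libraries. The excess of overlap goes along with this higher coverage, whose part in it was not tested.

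A core of end regions carried the marks throughout. H3K27ac was present in all 6 of its libraries in 334 end regions (25.8%, interior 18.6%) and H3K4me3 in 178 (13.7%, interior 7.59%), and 175 (13.5%, interior 7.20%) had both in all libraries. More than 50% lacked them altogether, as 700 end regions (54.0%, interior 66.0%) had neither mark in any library. Among regions with read counts, those with neither mark had a median H3K9me3 log2 fold change of 0.09 (n = 491), against -0.00 for such interior regions. Regions with H3K4me3 in all 6 libraries had a median of 0.12 (n = 126, interior 0.15), and those with H3K27ac in all 6 but no H3K4me3 had -0.12 (n = 35, interior -0.12).

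With maltonis, fewer end regions were overlapped by H3K27ac. The number was 471, 473 and 465 of 1297 in untreated and 377, 388 and 384 in maltonis libraries, with no overlap between conditions. The shares were 36.2% ± 0.321 and 29.5% ± 0.429 (SD, n = 3 each), a difference of -6.68 percentage points (exact permutation test, two-sided, p = 0.1), or -3.93 points when a peak and a region had to share 50% or more of the shorter one. In interior regions the difference was -2.90 points, and the excess of ends over interior was 10.7 points without and 6.88 points with maltonis, also with no overlap (exact permutation test, p = 0.1). For H3K4me3 the numbers were 275, 268 and 278 without and 242, 233 and 236 with maltonis, a difference of -2.83 points at the ends against -0.631 in the interior, and the excess of ends over interior again did not overlap between conditions (exact permutation test, p = 0.1). H3K4me3 peaks of the end zones changed by -13.3% in number and 21.6% in median width, both without overlap (exact permutation test, p = 0.1). In the interior these changes were -8.09% and 21.4%. The part of fewer and wider calls in the lower H3K4me3 overlap was not tested. H3K27ac was called in 3 untreated and 0 maltonis libraries in 47 end regions (3.62%; all regions 1.87%), and in 0 untreated and 3 maltonis libraries in 3 (0.231%; all regions 0.471%).

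H3K27ac also covered less of the end zones themselves, at 17.4, 17.7 and 17.4% without and 13.4, 13.2 and 12.5% with maltonis, a change of -25.5% (exact permutation test, p = 0.1). H3K27ac peaks of the end zones were also narrower, with a median of 4667 ± 231 bp without and 3733 ± 306 bp with maltonis, and held more reads per kb, 94.9 ± 0.617 and 111 ± 9.70 (SD, n = 3 each), both without overlap (exact permutation test, p = 0.1). These reads are not scaled for depth, and the part of the narrower calls in the lower coverage and overlap was not tested. The interior changed by -20.2%, and coverage of the ends over that of the interior was 2.35 ± 0.0590 without and 2.19 ± 0.0162 with maltonis (SD, n = 3 each), without overlap (exact permutation test, p = 0.1). In each distance bin up to 20 Mb the H3K27ac difference lay between -27.5 and -21.1%. Coverage was lower in all maltonis libraries at 34 of 37 ends, where 69% of interior windows were lower, and higher at 0 ends, where 2.85% of windows were higher. The 3 exceptions were 3p, which had no H3K27ac peak, 3q and 9p.

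H3K4me3 coverage of the ends was 2.18, 2.11 and 2.16% without and 2.20, 2.14 and 2.19% with maltonis and overlapped (exact permutation test, p = 0.4), whereas interior coverage was 0.770% ± 0.00696 and 0.826% ± 0.000522 (SD, n = 3 each) without overlap (p = 0.1). The ratio of ends to interior was accordingly 2.79 ± 0.0243 without and 2.63 ± 0.0390 with maltonis (SD, n = 3 each; exact permutation test, p = 0.1). At 9 ends H3K4me3 was higher without overlap, beside 31.5% of interior windows, and at 5 it was lower, beside 3.32%. Over the 37 ends, H3K9me3 coverage went with H3K27ac coverage (Spearman rho 0.62, Pearson r 0.55) more than with H3K4me3 coverage (rho 0.19, r 0.10). These coefficients are descriptions over ends that share the same libraries.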

How the data were processed

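ChIP-seq peak lists of 18 NB4 libraries were used, one list per library. Per the labels, BWA, SAMtools, MACS2, SICER and hg19 were named for processing; the study's methods give MACS2 for H3K4me3 and epic2 for H3K9me3 and H3K27ac, with versions and parameters not given in the sources used here. The authors deposited, for each H3K9me3 and H3K27ac peak, a raw read count and an island score. H3K4me3 peaks carry a deposited score, a fold enrichment ratio and −log10 p and q values, which entered no test. H3K4me3 lists hold no counts. Library read totals, which the study shows for each mark, were not used here.

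Groups and replicate numbers came from the sample titles. End positions were read as inclusive for H3K9me3 and H3K27ac and as exclusive for H3K4me3. Coverage, peak number, width and read density were computed per library and compared by exact permutation tests (Python 3.11.15, scipy 1.17.1, pandas 2.3.3) over 20 assignments of libraries or 64 sign patterns. Regions are not replicates. Counts summed per merged region were tested over the 14226 regions called in all 6 lists with edgeR 4.0.16 in R 4.3.3 (TMM, quasi-likelihood) after a check on simulated data, and with DESeq2 1.42.0 as an alternative. The SE of a fold change was taken from the quasi-likelihood F statistic. The other alternatives were end zones of 1 or 5 Mb, the strongest 75% of peaks, equal numbers of peaks (29432 per list), a common lowest island score (33.6), a denominator of 100 kb windows with a peak, regions called in all 6 lists, an overlap of 50% of the shorter interval, merging within 1000 bp, a count of at least 20, called length as an offset, called lengths within 1.5-fold, the replicate block and leaving out each library.

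Named regions were the 6 end regions with the highest mean score percentile, the 5 per direction with the smallest edgeR p, 3 of the 4 nearest an end (all 4 reached it), the widest, 2 on each side of the 2 Mb limit, and the 3 most and 3 least covered ends. The 2 regions called with called length as an offset were named after their values were seen. 12q and the other ends named for a difference between conditions were chosen after their values were seen, as were the end over interior ratios of H3K27ac and H3K4me3, the interior windows and the peaks at the first mapped base. Regions, lists and tests were chosen with earlier results of these data known. Zinc finger, olfactory receptor, interferon and telomere position gene lists, foreseen for an annotation of the same build, were not analysed here.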

Additional observations from a re-analysis of the deposited data

How the results depend on the processing

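Every comparison of conditions over libraries that was rerun kept its direction under the alternatives tried for it, except the number of H3K9me3 end zone peaks. That number was lower by 70 in maltonis lists and became higher by 139 with equal numbers of peaks and by 47 at a common lowest island score. Other list thresholds were tried for H3K9me3 peaks only. The end over interior ratios of H3K27ac and H3K4me3 were rerun only with other zone sizes and left-out libraries. H3K27ac coverage, peak width and reads per kb of the end zones were not rerun. The end minus interior difference in median peak width passed 0.05 with a zone of 1 Mb (300 bp), equal numbers of peaks (233 bp) and a common lowest island score (200 bp), each at p = 0.03125 (exact permutation test), and ran from 160 to 240 bp with single libraries left out. With 1 library left out, the smallest p of the end minus interior tests is 0.0625, so these passed no threshold. Their differences were 7.54 to 7.75 points for coverage, 0.15 on the log2 scale for reads per kb (0.147 to 0.154), 8.34 to 9.21 points for H3K27ac overlap and 8.43 to 8.93 points for H3K4me3 overlap. The number of end regions with more reads was 4 (all regions 36 of 14226), and became 15 with DESeq2 (all 139) and 2 with called length as an offset (all 17). The 2 called with the offset were not among the 4. Among regions of similar called length it was 1 of 245 (all 10 of 2787). The number with fewer reads was 0 (all 2) and became 4 with DESeq2 (all 44). Without untreated 2, untreated 3, maltonis 1 or maltonis 2, 1 end region had more reads, beside 12, 1, 1 and 1 of all 14226 regions in that order. Without untreated 1 the number was 2, beside 8 of all regions, and without maltonis 3 it was 3, beside 11. With 1 library left out the number thus ranged from 1 to 3, with 0 to 0 for fewer reads (all regions 0). In the smaller fits fewer samples were tested. With called length as an offset the direction turned for the 9p region from 1652601 (-0.30), the 18q region from 76823801 (0.10), the 13q region from 114062001 (0.11) and the 15q region from 100738801 (0.36). Same-numbered libraries did not deviate together (correlations of -4.05e-05, -0.0192 and 0.00606 over regions), so the numbers were not taken to pair them. With the replicate block 2 end regions had more and 0 had fewer reads, beside 11 and 0 of all 14226 regions. The exact test over 3 pairs, whose smallest p is 0.25, gave 0.25 for the end over interior ratio of H3K9me3 coverage (0.13 on the log2 scale). The causes of these changes were not tested. Lists of called peaks limit all values: what lay below a list's threshold was not seen.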

Other observations

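Peaks that began at the first mapped base of a chromosome, position 10001, were looked at after the data had been examined. On 18p an H3K9me3 peak began there in all 6 libraries and ended between 13600 and 14200, with 121, 118 and 135 reads without and 129, 118 and 105 with maltonis. The short arm of chromosome 18 was otherwise among the sparsest ends. H3K27ac peaks at that position were found in maltonis libraries and in 0 untreated libraries. They were short and weak, with 32, 40 and 43 reads on chromosome 1, with 37, 43 and 39 reads on chromosome 18 and with 24 reads in maltonis 3 on chromosome 4. Whether reads below the threshold were present in untreated libraries cannot be read from peak lists.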
